A study of Mus musculus with 30 samples.

Results

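The transcription factors that define a microglial cell were followed in mice with a deletion of Il34, the gene of interleukin-34 (IL-34), or under an antibody that blocks it. The 9 genes Sall1, Spi1, Irf8, Maf, Mef2c, Mef2a, Runx1, Cebpa and Tal1 were taken by symbol from a count table of 51752 genes, and each symbol had 1 row. The genotype experiment held 4 mice heterozygous for the Il34 deletion (Het) and 3 homozygous mice (KO). The antibody experiment held wild-type mice, 4 given a blocking antibody against IL-34 (anti-IL34) and 4 given a control antibody (anti-gp120). Each of the 15 animals gave 1 whole-forebrain library and 1 library of cells isolated with CD11b magnetic beads, so 30 libraries were compared. The Het animals carried 1 deleted allele and were not wild type, and the antibody experiment had its own controls. Each arm held both sexes, with 1 male among the KO animals and 1 female among the anti-IL34 animals. The age of the mice and the dose, route and schedule of the antibodies are not given in the sources used here.

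IL-34 is a ligand of the receptor CSF1R, made in the forebrain mainly by neurons, on which many forebrain microglia depend. Microglia are the resident macrophages of the brain. Their identity rests on general myeloid regulators, such as PU.1 (the product of Spi1), IRF8, RUNX1 and C/EBPα (Cebpa), joined by factors typical of microglia among macrophages, above all SALL1, and by MAF and MEF2 proteins at microglial enhancers. TAL1 is a basic helix-loop-helix factor of blood cell development. MEF2C and MEF2A are MADS-box factors that neurons also make in large amounts.

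Library totals were 15.06 M to 75.16 M counts. Il34 itself was counted at 19.4 to 23.4 CPM (counts scaled to library size) in Het forebrains and 6.80 to 8.72 in KO forebrains, against 31.9 to 40.7 in the antibody experiment, so every KO forebrain lay below every other. In the isolates, KO animals (5.84 to 7.33 CPM) lay within the range of Het animals (5.02 to 11.01 CPM), so Il34 checks these labels in forebrain only. All levels of the transcription factors below are CPM after TMM scaling (edgeR's correction for library composition) over the 15 libraries of 1 tissue. They are therefore compared between arms within a tissue, not between genes or tissues.

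Irf8, the interferon regulatory factor that acts beside PU.1, was listed at 0 in all 30 libraries, and no statement on its expression can be made. Irf8 lies at chr8:120736358-120756694 (GRCm38, plus strand) inside the annotated read-through gene Gm20388, at chr8:119910841-124345722 on the same strand. All 36 protein-coding genes inside Gm20388 on its strand were at 0 in every library, among them genes that every cell uses, such as Cox4i1 and Rpl13. None of the 35 protein-coding genes inside Gm20388 on the other strand was. Across the table, 418 of 446 protein-coding genes (93.7%) inside another gene on the same strand were at 0 everywhere, against 71 of 695 (10.2%) inside a gene on the opposite strand only. The other 8 transcription factors passed the filter on low counts in every comparison and were tested. None of them lies inside another gene on its own strand.

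To show what lies upstream of these genes, the 250 bases before the annotated gene start are given for Mef2a, Mef2c and Tal1, the factors whose window there held a motif of another factor of the list, 5′ to 3′ on the gene's strand, from RefSeq's annotation of GRCm38.p6. Capitals mark the PU.1 box (GAGGAA) and, in Tal1, also the C/EBP letters (TTGCNNAA, here on the reverse strand).
Mef2a, chr7:67372859-67373108, minus strand: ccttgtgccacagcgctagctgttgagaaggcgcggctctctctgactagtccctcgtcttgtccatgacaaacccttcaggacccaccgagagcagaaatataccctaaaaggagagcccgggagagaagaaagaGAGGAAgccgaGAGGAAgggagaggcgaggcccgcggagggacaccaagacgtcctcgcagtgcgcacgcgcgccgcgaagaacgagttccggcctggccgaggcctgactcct
Mef2c, chr13:83503784-83504033, plus strand: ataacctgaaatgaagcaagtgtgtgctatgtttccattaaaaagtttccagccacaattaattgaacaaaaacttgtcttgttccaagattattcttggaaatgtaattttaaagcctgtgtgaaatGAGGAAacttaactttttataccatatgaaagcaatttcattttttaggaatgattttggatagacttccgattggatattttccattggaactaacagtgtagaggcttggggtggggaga
Tal1, chr4:115056176-115056425, plus strand: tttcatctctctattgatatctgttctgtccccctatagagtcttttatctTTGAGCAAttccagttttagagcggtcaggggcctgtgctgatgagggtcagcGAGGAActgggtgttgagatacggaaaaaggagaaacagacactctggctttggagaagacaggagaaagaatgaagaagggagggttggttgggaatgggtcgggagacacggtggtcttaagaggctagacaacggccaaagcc
The Mef2a window holds 2 PU.1 boxes, at 114 to 109 and 103 to 98 bases before the start. The Mef2c window holds 1, at 122 to 117 bases, and the Tal1 window 1, at 146 to 141 bases. Of all 32851 promoter windows of this length, 23.3% hold a PU.1 box on either strand and 9.56% hold the C/EBP letters, so both are common. The windows at the annotated gene starts of Sall1 (before chr8:89044162, minus strand) and Cebpa (before chr7:35119293, plus strand), and those of Irf8 and of Runx1 (75 bases from the annotated start), held none of the 7 motifs searched. At further RefSeq starts, a Runx1 window (chr16:92697330-92697579) holds 1 PU.1 box on the reverse strand, at 46 to 41 bases, and 2 Mef2c windows and 1 Tal1 window hold 1 motif each. The other 5 motifs were those of RUNX (TGTGGT, in 14% of all windows), MEF2 (CTA, any 4 bases, TAG, 3.2%), MAF (TGCTGAC, 3.81%), TAL1 (CAGATG, 14.4%) and IRF (GAAA, any 2 bases, GAAA, 2.98%), each searched on both strands. Such matches describe these letters only. RefSeq windows were found for 7 of the 9 genes, and Spi1 and Maf had none in the table used.

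The factors differed widely in their enrichment in the isolates of control animals (Het and anti-gp120, n = 8 animals). Runx1, Cebpa and Spi1, the myeloid regulators, were enriched most strongly, with log2 differences between isolate and forebrain of 6.64 ± 0.21 (SE), 5.94 ± 0.22 and 5.56 ± 0.19. Tal1 (4.39 ± 0.10), Sall1 (4.09 ± 0.12) and Maf (3.72 ± 0.10) followed. Mef2a was only 1.77 ± 0.12 higher in the isolate, and Mef2c was lower there, at -0.97 ± 0.10. All 8 passed edgeR's quasi-likelihood test with Benjamini-Hochberg adjustment (adjusted p from 9.01e-15 for Tal1 to 2.21e-07 for Mef2c), but so did 83.5% of all 19952 genes tested, so the order of the values is more informative than the calls. For comparison, the 16 microglia markers tested had a median log2 difference of 5.67 and ranged from 4.80 to 6.17. Runx1 lay above that range, Cebpa and Spi1 within it, and the other 5 below it.

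In the KO and anti-IL34 animals (n = 7) the same 3 genes led, with Runx1 at 6.56 ± 0.17, Spi1 at 5.59 ± 0.15 and Cebpa at 5.33 ± 0.18. Tal1 stood at 3.55 ± 0.14, Sall1 at 3.51 ± 0.17, Maf at 2.84 ± 0.12, Mef2a at 0.82 ± 0.11 and Mef2c at -1.73 ± 0.10. All 8 passed here too, beside 83.3% of all genes tested. The difference between these enrichments was tested within each experiment and is given after the arm comparisons.

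Between genes, levels depend on the length used. Whether the counts include intronic reads is not given in the sources used here. The deposited gene length equals the whole gene span for 32062 of 32301 matched genes with introns. Counts taken over that length would include intronic reads. Division by exon length would then set intronless Cebpa too low against the others. Scaled by exon length in Het isolates (CPM per kilobase of exon, n = 4), Sall1 was highest at 89.9 ± 10.5 (SD) and Tal1 lowest at 12.2 ± 1.51, with Cebpa at 59.3 ± 21.4, Maf at 54.9 ± 7.19, Mef2a at 53.9 ± 14.4, Spi1 at 47.1 ± 9.90, Mef2c at 30.9 ± 5.99 and Runx1 at 21.8 ± 4.70. The authors' deposited TPM divide by the whole gene span instead, and there Cebpa, an intronless gene, led with 1169.5 ± 356 TPM while Runx1, whose span is 224684 bases, was lowest at 23.2 ± 3.94. In Het forebrains on the exon scale, Mef2c stood at 64.0 ± 5.21 and Runx1 at 0.187 ± 0.051, the highest and the lowest of the 8.

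Deletion of Il34 lowered 6 of the 8 testable factors in the isolates, Sall1, Maf, Tal1, Spi1, Runx1 and Mef2a, to between 37.3% and 43.5% of the Het level. The same call was reached by 5.22% of all 18185 genes tested as lower and 0.143% as higher. Cebpa and Mef2c did not pass the test, although their KO libraries also lay below all Het libraries. For all 8 factors the 2 arms did not overlap, a pattern found as lower for 19.4% of all genes tested.

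SALL1 is a zinc finger repressor that keeps microglia apart from other macrophages. Its transcript stood at 438, 476, 493 and 389 CPM in the isolates of Het animals 1, 20, 21 and 23 and at 164, 184 and 149.9 CPM in those of KO animals 3, 6 and 24. Every KO value lay far below every Het value. The fitted log2 difference was -1.42 ± 0.16 (SE; edgeR adjusted p = 0.0136), or 37.3% of the Het level. MAF is a basic leucine zipper factor of tissue macrophages. Maf was at 422, 401, 536 and 366 CPM in the same Het isolates and at 187, 184 and 143 CPM in the KO isolates, a log2 difference of -1.27 ± 0.17 (edgeR adjusted p = 0.0151).

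Among the myeloid regulators, Spi1 was at 93.5, 98.01, 167 and 129.5 CPM in Het and 49.99, 46.1 and 55.2 CPM in KO isolates, a log2 difference of -1.24 ± 0.22 (edgeR adjusted p = 0.0288). Runx1, which encodes a runt-domain factor of blood and macrophage development, spread widely among the Het isolates, at 177, 214, 331 and 286 CPM. Its 3 KO values of 110.0, 108 and 108 CPM were nearly equal, and the log2 difference was -1.20 ± 0.23 (edgeR adjusted p = 0.0357). Cebpa had the widest relative spread, with 84.1, 128, 237 and 156 CPM in Het and 39.2, 52.3 and 65.4 CPM in KO isolates. Its log2 difference of -1.56 ± 0.37 was the lowest of the 8 but did not pass (edgeR adjusted p = 0.062). Tal1, at a lower level, kept the arms far apart, with 45.5, 56.3, 52.5 and 47.6 CPM against 21.95, 25.6 and 17.6 CPM and a log2 difference of -1.22 ± 0.16 (edgeR adjusted p = 0.0156).

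Of the MEF2 genes, Mef2a passed and Mef2c did not. Mef2a was at 524, 608, 1095 and 823 CPM in Het and 291, 275 and 324 CPM in KO isolates, a log2 difference of -1.33 ± 0.29 (edgeR adjusted p = 0.0481). Mef2c was at 381, 413, 645 and 425 CPM against 258, 229.8 and 251 CPM, a log2 difference of -0.87 ± 0.20 that did not pass (edgeR adjusted p = 0.061). Het animal 21 was the highest of its arm for Spi1, Runx1, Cebpa, Mef2a, Mef2c, Maf and Sall1, but not for Tal1. In this comparison the calls depended on every animal that was left out. By edgeR, no gene of the table passed without Het animal 20, Het animal 23 or KO animal 3, 6 or 24, although 2268 to 4465 genes then had an unadjusted p under 0.05, and all 8 factors passed without Het animal 1 or 21. Whichever animal was left out, Sall1 was between -1.49 and -1.34, Maf between -1.36 and -1.20, Mef2a between -1.45 and -1.14 and Cebpa between -1.72 and -1.23 on the log2 scale. DESeq2 called all 8, with an adjusted p of 0.0011 for Cebpa and 0.00174 for Mef2c. The shares of all genes called by DESeq2 and without Het animal 1 or 21 are not reported here. These counts of 8 are therefore no measure of the factors against other genes.

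**Figure D1:**
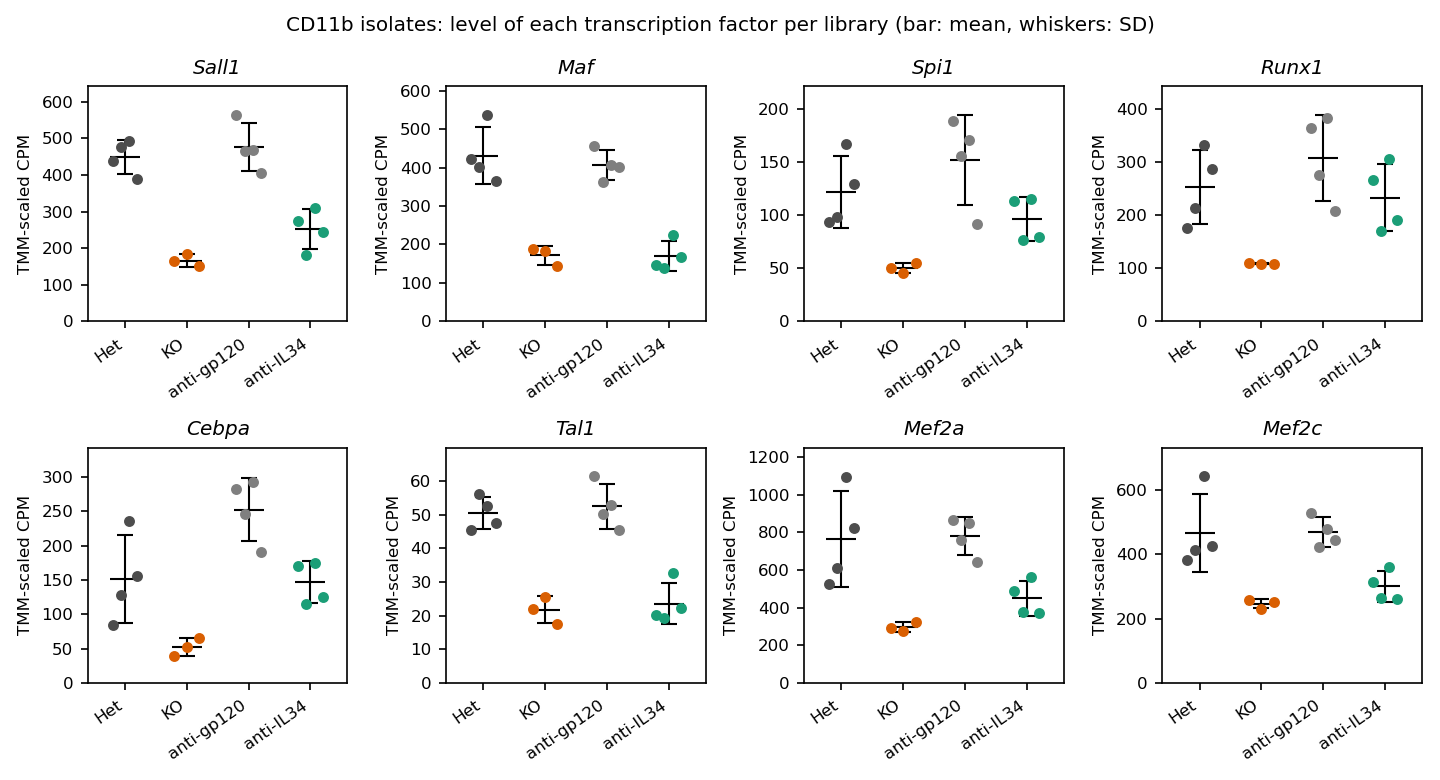
Level of each testable transcription factor in the CD11b isolates, in TMM-scaled CPM on a linear axis from 0, by arm. Points are libraries, 1 per animal, bars are means and whiskers are SD (n = 4, 3 in KO). Every KO library lies below every Het library for all 8 genes, and anti-IL34 libraries overlap the anti-gp120 libraries for Spi1 and Runx1.

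The makeup of the isolates moved with the arms. Of the 18 microglia markers listed, 17 had a row and 16 were detected in every isolate, and their summed level was 13587 to 24428 CPM in Het isolates and 5235 to 5984 CPM in KO isolates. All 16 tested fell, with a median log2 difference of -1.59 against 0.019 for all genes. Astrocyte markers (6 of 6 detected) summed to 1134 to 3334 CPM in Het and 3995 to 4322 CPM in KO isolates. Excitatory neuron markers (6 of 6) summed to 562 to 2118 and 1854 to 3120.1 CPM, and oligodendrocyte lineage markers (8 of 8) to 2867 to 9409 and 7390.2 to 16902 CPM. Border macrophage markers (7 of 7) were at 755 to 935 and 402 to 834 CPM. Genes of the stress of isolation (11 of 11) were at 7259 to 13495 and 3666 to 4285 CPM. Inhibitory neuron markers (7 of 7) were at 27.1 to 58.7 and 61.7 to 103 CPM, and genes of monocytes and neutrophils (9 listed) at 271 to 489 and 154 to 175 CPM, without overlap. None of these lists had a member at 0 in every library of either arm. In bulk RNA such as this, fewer cells of a type and less RNA per cell cannot be told apart, and the part of the isolates' makeup in the results above was not tested.

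**Figure D2:**
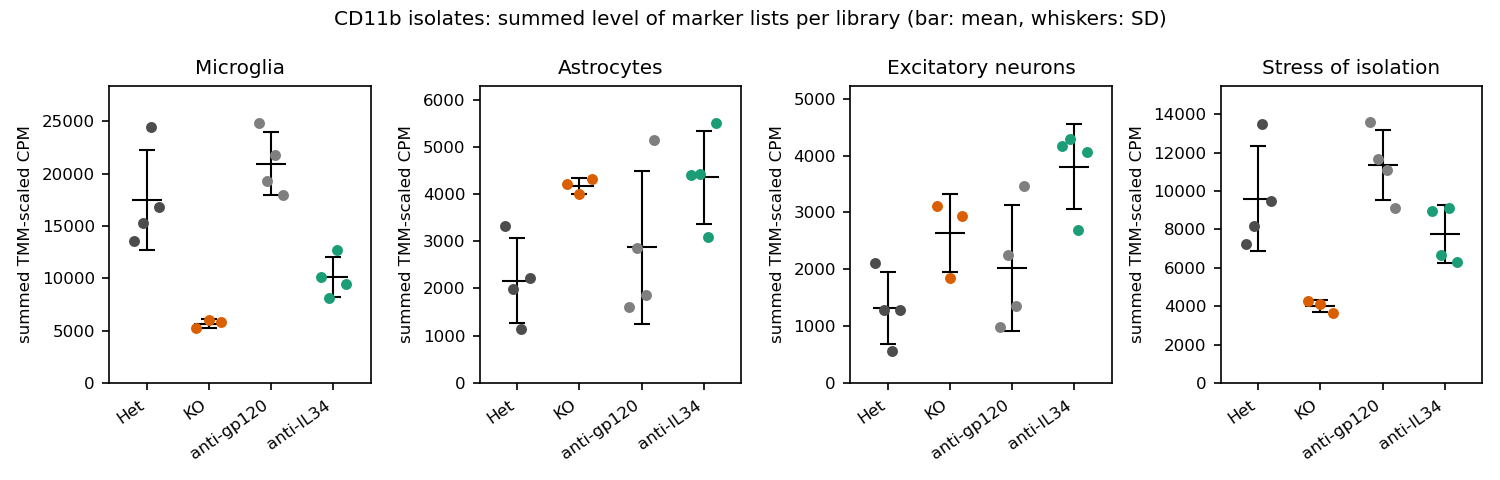
Summed level of 4 marker lists in each CD11b isolate, in TMM-scaled CPM on linear axes from 0, by arm. Points are libraries, bars are means and whiskers are SD (n = 4, 3 in KO). Microglia markers lie lower in KO than in Het and lower in anti-IL34 than in anti-gp120 isolates without overlap, while astrocyte markers lie higher in KO than in Het isolates and overlap in the antibody experiment.

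Set against the summed microglia markers of the same library, most factors no longer separated the arms. This ratio was chosen after the values were seen and is given with no test, in CPM of the factor per 1000 CPM of the markers. Sall1 stood at 26.7 ± 5.95 (SD) in Het and 29.3 ± 3.03 in KO isolates, and Maf at 25.3 ± 4.37 and 30.4 ± 5.54. For Spi1 the ratios were 6.97 ± 0.541 and 8.92 ± 1.06, for Cebpa 8.39 ± 1.56 and 9.17 ± 1.93, for Tal1 3.01 ± 0.672 and 3.84 ± 0.694, and for Mef2a 43.1 ± 4.799 and 52.5 ± 5.61. These 6 factors overlapped between the arms. Runx1 (14.4 ± 1.81 against 19.2 ± 1.57) and Mef2c (26.7 ± 1.15 against 43.7 ± 5.49) were higher in every KO isolate than in every Het isolate. No overlap in the higher direction was the rule for this ratio, found for 89.4% of all genes tested, with a denominator that was itself lower in KO isolates, and no overlap in the lower direction was found for 0.0935%.

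**Figure D3:**
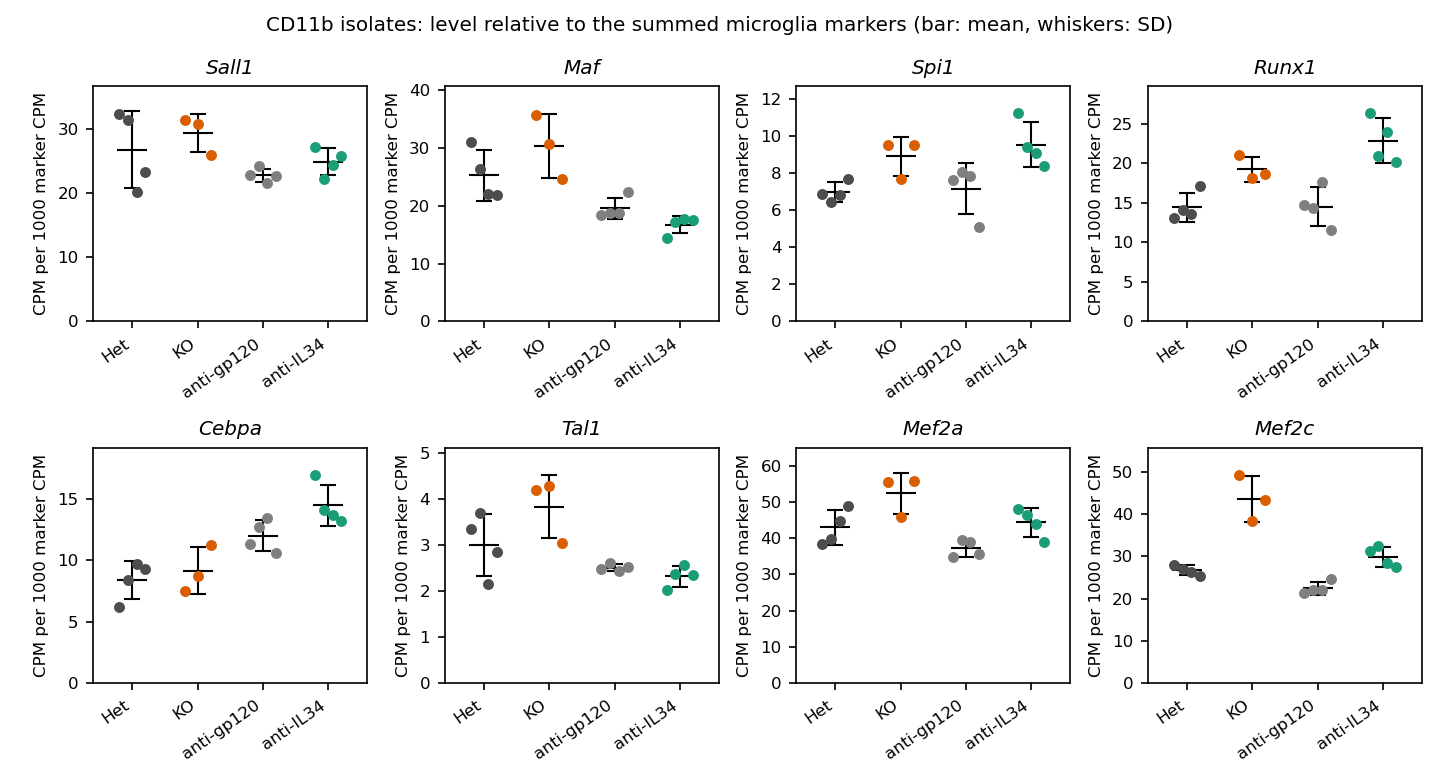
Level of each factor in the CD11b isolates per 1000 CPM of summed microglia markers in the same library, on linear axes from 0, by arm. Points are libraries, bars are means and whiskers are SD (n = 4, 3 in KO). Het and KO overlap for 6 of 8 factors, and Mef2c and Runx1 lie higher in both KO and anti-IL34 isolates than in their controls.

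In whole forebrain, deletion lowered Spi1 and Maf, 2 of the 8 tested, beside 0.615% of all 19343 genes called lower and 0.00517% called higher. Spi1 was at 2.73, 2.33, 2.28 and 1.97 CPM in Het animals 1, 20, 21 and 23 and at 1.38, 1.16 and 0.899 CPM in KO animals 3, 6 and 24. These levels rest on 102 to 171 counts per Het library and 19 to 63 per KO library. The log2 difference was -0.95 ± 0.18 (edgeR adjusted p = 0.0277), or 51.8% of the Het level. Maf was at 30.2, 32.3, 29.3 and 32.1 CPM in Het and 23.8, 24.8 and 25.5 CPM in KO forebrains. Its change was small, at 78.9% of the Het level, and precise, with a log2 difference of -0.34 ± 0.049 (edgeR adjusted p = 0.00467).

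Sall1 was at 23.4, 21.7, 27.8 and 22.7 CPM in Het and 16.95, 19.4 and 15.6 CPM in KO forebrains, a log2 difference of -0.43 ± 0.092 that did not pass (edgeR adjusted p = 0.0729). For Sall1, Spi1 and Maf the arms did not overlap, which was the case as lower for 5.24% of all genes tested. Runx1 (1.91, 1.59, 2.97 and 2.49 CPM in Het, 1.26, 1.68 and 0.899 in KO) and Cebpa (3.17, 3.03, 2.05 and 3.22 CPM in Het, 1.502, 2.36 and 2.08 in KO) overlapped between arms. Their log2 differences of -0.70 ± 0.26 and -0.59 ± 0.18 did not pass (edgeR adjusted p = 0.535 and 0.346). Tal1 differed by -0.17 ± 0.16, Mef2a by -0.049 ± 0.042 and Mef2c by 0.088 ± 0.067 on the log2 scale, all with overlapping arms. Mef2c, at 1002 ± 90.8 CPM in Het (SD, n = 4) and 1069 ± 56.96 CPM in KO forebrains (n = 3), and Mef2a, at 237 ± 8.06 and 229 ± 3.06 CPM, had the highest CPM of the 8. Their levels per kilobase of exon were also the highest in both arms. Microglia markers summed to 280.4 to 317 CPM in Het and 116 to 131 CPM in KO forebrains, with a median log2 difference of -1.34. Of the 16 tested, 15 passed as lower, beside 0.615% of all genes, and 16 had an unadjusted p under 0.05. Oligodendrocyte lineage markers summed to 4892 to 5829 CPM in Het and 3994 to 4268 CPM in KO forebrains, and genes of monocytes and neutrophils to 4.78 to 6.08 and 1.75 to 2.45 CPM, also without overlap, and the part of these in the results was not tested. Maf passed with any 1 animal left out but KO animal 3 (adjusted p = 0.0666), with a log2 difference between -0.36 and -0.33. With 1 animal left out, Spi1 passed without Het animal 21 or 23 and not in the other 5 fits (adjusted p up to 0.199, without KO animal 3). Sall1 passed without KO animal 6 (adjusted p = 0.0199) and by DESeq2 (adjusted p = 0.00211).

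**Figure D4:**
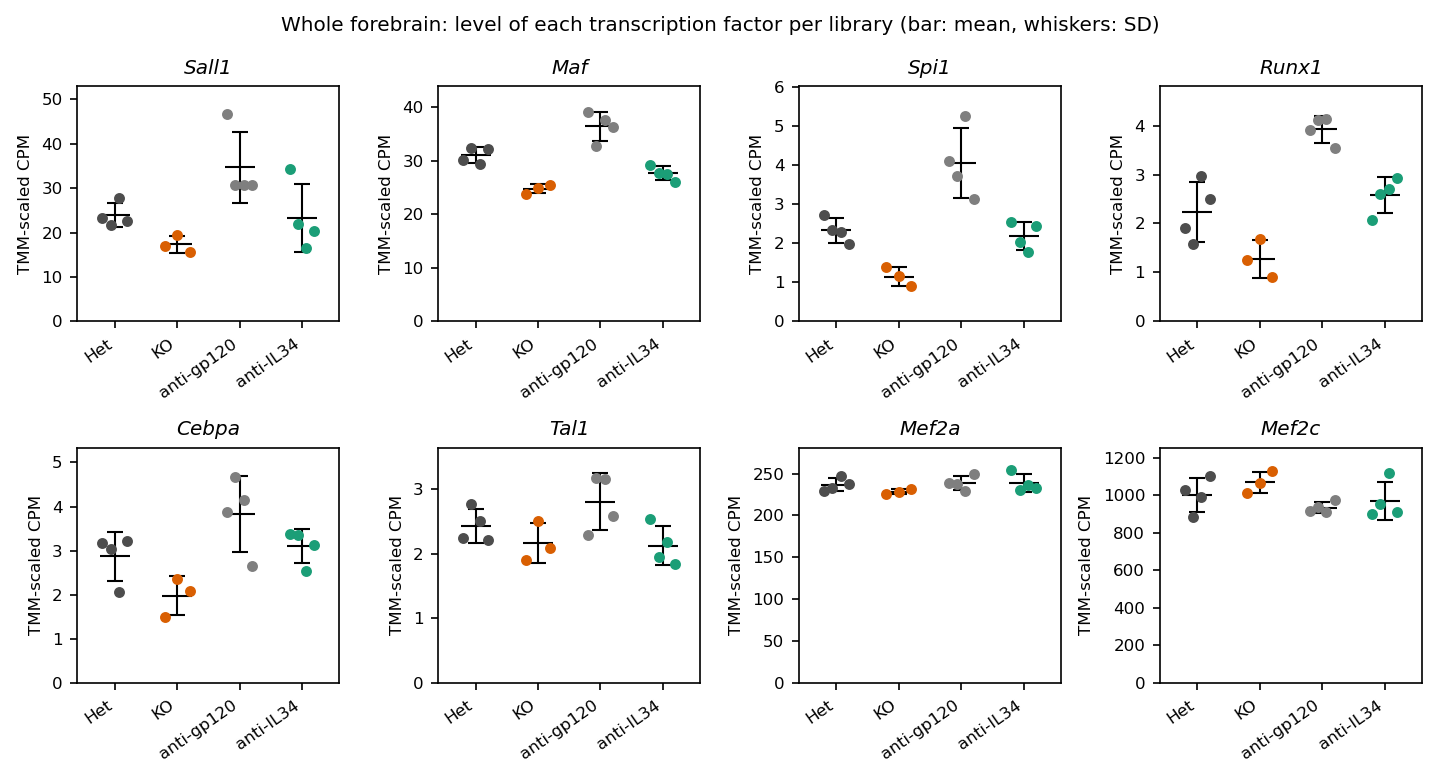
Level of each testable transcription factor in whole forebrain, in TMM-scaled CPM on linear axes from 0, by arm. Points are libraries, 1 per animal, bars are means and whiskers are SD (n = 4, 3 in KO). Spi1 and Maf separate KO from Het and anti-IL34 from anti-gp120, while Mef2a and Mef2c overlap in both experiments.

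The effect of deletion was tested for a difference between isolate and forebrain over all 14 libraries of the genotype experiment. The factors fell further in the isolate for Sall1 (difference of the log2 effects -0.95 ± 0.19, edgeR adjusted p = 0.0277), Maf (-0.90 ± 0.17, 0.022), Mef2a (-1.26 ± 0.29, 0.0464) and Tal1 (-0.999 ± 0.23, 0.0425). These were 4 of 8, beside 2.43% of all genes tested in that direction and 0.552% in the other. Spi1 (-0.27 ± 0.30, adjusted p = 0.558) and Runx1 (-0.46 ± 0.40, 0.445) had the differences nearest to 0. Cebpa (-0.94 ± 0.46, 0.187) and Mef2c (-0.93 ± 0.23, 0.0545) did not pass. Both tissues came from the same animals. When the animal entered the fit as a replicate block, none of the 8 passed, with Sall1 and Tal1 at an adjusted p of 0.0912, Maf at 0.101 and Mef2a at 0.105. The block left the sizes nearly as they were, for example -0.94 for Sall1 and -1.21 for Mef2a. Without Het animal 20 or 23 or any 1 of KO animals 3, 6 and 24 none passed either, and 6 passed without Het animal 1. The share of all genes called without Het animal 1 is not reported here, so that count is no measure of the factors against other genes.

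Under the antibody, Maf was the only factor of the 8 that passed the test in the isolates, where 0.603% of all 17570 genes tested were called lower and 0.0228% higher. Maf was at 457, 362, 406 and 402 CPM in the isolates of anti-gp120 animals 1, 7, 8 and 15 and at 146, 139.5, 225 and 167 CPM in those of anti-IL34 animals 2, 10, 11 and 24. All anti-IL34 values lay below all controls, and the log2 difference was -1.19 ± 0.16 (edgeR adjusted p = 0.0374), or 43.7% of the control. Tal1 was close behind with 61.4, 50.2, 52.7 and 45.6 CPM against 20.3, 19.3, 32.6 and 22.2 CPM and a log2 difference of -1.10 ± 0.19 that did not pass (edgeR adjusted p = 0.0515). Sall1 was at 564, 465, 468 and 406 CPM in anti-gp120 and 274, 181, 309.9 and 243 CPM in anti-IL34 isolates, a log2 difference of -0.88 ± 0.20 (edgeR adjusted p = 0.0731).

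Mef2a (log2 difference -0.75 ± 0.18), Cebpa (-0.74 ± 0.20) and Mef2c (-0.59 ± 0.15) did not pass, at edgeR adjusted p of 0.0866, 0.104 and 0.0869. Together with Maf, Tal1 and Sall1 they made 6 factors without overlap between the arms, a pattern found as lower for 13.1% of all genes tested. The other 2 overlapped. Spi1 was at 189, 156, 171 and 92.2 CPM in anti-gp120 and 114, 76.9, 115 and 79.7 CPM in anti-IL34 isolates, a log2 difference of -0.64 ± 0.25 (edgeR adjusted p = 0.178). Runx1 was at 364, 276, 383 and 207 CPM against 265, 170.0, 305 and 191 CPM, and its log2 difference of -0.34 ± 0.26 was the nearest to 0 of the 8 (edgeR adjusted p = 0.375). Anti-gp120 animal 15 was the lowest control for Spi1, Runx1, Cebpa, Mef2a, Sall1 and Tal1.

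The isolate of anti-gp120 animal 15 also held the highest astrocyte marker sum of the control isolates, and without that animal all 8 factors passed, Runx1 barely (adjusted p = 0.04996). Without anti-IL34 animal 11, whose values were the highest of its arm for all 8 factors, 3 passed, and none passed without any 1 of the other animals. The shares of all genes called in these fits are not reported here. The counts of 8 and 3 are therefore no measure of the factors against other genes. Maf was between -1.42 and -1.04 and Runx1 between -0.60 and -0.17 on the log2 scale whichever animal was left out. Microglia markers summed to 17998 to 24819 CPM in anti-gp120 and 8142 to 12720.4 CPM in anti-IL34 isolates, with a median log2 difference of -1.07. Of the 16 tested, 8 passed as lower, beside 0.603% of all genes, and 15 had an unadjusted p under 0.05. Astrocyte markers were at 1608 to 5152 and 3086 to 5501 CPM, border macrophage markers at 537 to 999 and 378 to 534 CPM (without overlap), excitatory neuron markers at 985 to 3470.1 and 2686 to 4291 CPM, and genes of the stress of isolation at 9123 to 13575 and 6310.1 to 9141 CPM. Interferon response genes (12 of 12 detected) were at 112 to 406 CPM in anti-gp120 and 445 to 1336 CPM in anti-IL34 isolates. Choroid plexus markers were at 3.76 to 6.55 CPM in anti-gp120 isolates and at 3.32, 2083, 544 and 31.8 CPM in those of anti-IL34 animals 2, 10, 11 and 24, and 4 of 4 tested had an unadjusted p under 0.05. The part of these lists in the results was not tested.

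Per 1000 CPM of microglia markers, Maf was lower in every anti-IL34 isolate (16.7 ± 1.51) than in every anti-gp120 isolate (19.5 ± 1.85), the only factor of the 8 with that pattern, which 0.228% of all genes tested showed. Runx1 (14.5 ± 2.49 in anti-gp120, 22.8 ± 2.84 in anti-IL34), Spi1 (7.17 ± 1.38 and 9.55 ± 1.22) and Mef2c (22.5 ± 1.54 and 29.9 ± 2.34) were higher without overlap, as were 75.7% of all genes. Sall1 (22.7 ± 1.06 and 24.8 ± 2.11), Tal1 (2.51 ± 0.076 and 2.32 ± 0.229), Cebpa (12.03 ± 1.29 and 14.5 ± 1.67) and Mef2a (37.2 ± 2.28 and 44.4 ± 3.95) overlapped. In KO isolates the ratio of Maf had overlapped with that of Het isolates and its mean was higher.

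In the forebrains of the antibody experiment, Maf again was the only factor of the 8 that passed, beside 0.525% of all 17143 genes tested called lower and 0.192% called higher. It was at 39.2, 32.6, 37.5 and 36.2 CPM in anti-gp120 animals 1, 7, 8 and 15 and at 29.2, 27.8, 27.5 and 25.99 CPM in anti-IL34 animals 2, 10, 11 and 24. The log2 difference was -0.40 ± 0.077 (edgeR adjusted p = 0.043), and with any 1 animal left out the adjusted p of Maf was 0.0506 to 0.392 and its log2 difference -0.47 to -0.34. Spi1 was at 4.11, 3.73, 5.26 and 3.13 CPM against 2.53, 2.04, 1.76 and 2.43 CPM, a log2 difference of -0.91 ± 0.20 that did not pass (edgeR adjusted p = 0.0813). Runx1 was at 3.91, 4.12, 4.14 and 3.55 CPM against 2.08, 2.61, 2.697 and 2.94 CPM and did not pass either (-0.61 ± 0.15, edgeR adjusted p = 0.178). In these 3 the arms did not overlap, which was the case as lower for 2.07% of all genes tested.

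Sall1 varied most among the forebrains of the antibody experiment, with 46.6, 30.7, 30.6 and 30.7 CPM in anti-gp120 and 34.3, 21.9, 16.5 and 20.2 CPM in anti-IL34 animals. Anti-gp120 animal 1 stood above its arm, and anti-IL34 animal 2 stood above 3 of the 4 controls. The log2 difference of -0.71 ± 0.18 did not pass (edgeR adjusted p = 0.16), and Sall1 was the 1 factor that passed without anti-IL34 animal 2 (adjusted p = 0.0167). Cebpa (-0.39 ± 0.16), Tal1 (-0.40 ± 0.19), Mef2c (0.076 ± 0.069) and Mef2a (-0.0094 ± 0.061) did not pass and overlapped between the arms. Microglia markers summed to 459 to 619.8 CPM in anti-gp120 and 215 to 275 CPM in anti-IL34 forebrains. Interferon response genes were at 38.6 to 58.1 and 101 to 263 CPM and mural cell markers at 211 to 235 and 169 to 205 CPM, both without overlap, and their part in these results was not tested.

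The antibody effect did not differ between isolate and forebrain for any of the 8 factors by edgeR's test, beside 0.0924% of all 18399 genes called in either direction. The values nearest to the threshold were those of Maf (-0.81 ± 0.19, adjusted p = 0.0985), Mef2c (-0.68 ± 0.18, 0.134) and Mef2a (-0.75 ± 0.21, 0.145). These 3 and Tal1 had an unadjusted p under 0.05, and DESeq2 called 3 of the 8. Spi1 (0.26 ± 0.36) and Runx1 (0.25 ± 0.33) had positive values, meaning a smaller fitted decrease in the isolate than in the forebrain, within their error.

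Deletion and antibody were compared by the difference of their effects. None of the 8 factors passed in either tissue by edgeR or DESeq2, and of all genes 0.0101% passed in forebrain and 0% in the isolates. In the isolates the difference was -0.84 ± 0.37 for Runx1, -0.79 ± 0.42 for Cebpa, -0.59 ± 0.36 for Spi1, -0.58 ± 0.33 for Mef2a and -0.52 ± 0.25 for Sall1. Negative values mean a larger fitted decrease under deletion than under the antibody. Mef2c (-0.26 ± 0.26), Tal1 (-0.10 ± 0.25) and Maf (-0.067 ± 0.26) lay closer to 0. Of these, Runx1 alone had an unadjusted p under 0.05 (0.0387, adjusted p = 1). In forebrain the 8 differences ranged from -0.20 ± 0.29 for Cebpa to 0.27 ± 0.23 for Sall1, and none had an unadjusted p under 0.05. The errors are large enough that these values do not show equal effects. The experiments also differed in the isolates' makeup, with choroid plexus markers at 1606 to 3828 CPM in Het against 3.76 to 6.55 CPM in anti-gp120 isolates. For the difference of the effects in the isolates, 5 of 5 choroid plexus markers and 12 of 12 interferon response genes had an unadjusted p under 0.05, and their part in the comparison was not tested. Runx1, at its edgeR unadjusted p of 0.0387, stood at place 591 of the 18732 genes tested there.

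**Figure D5:**
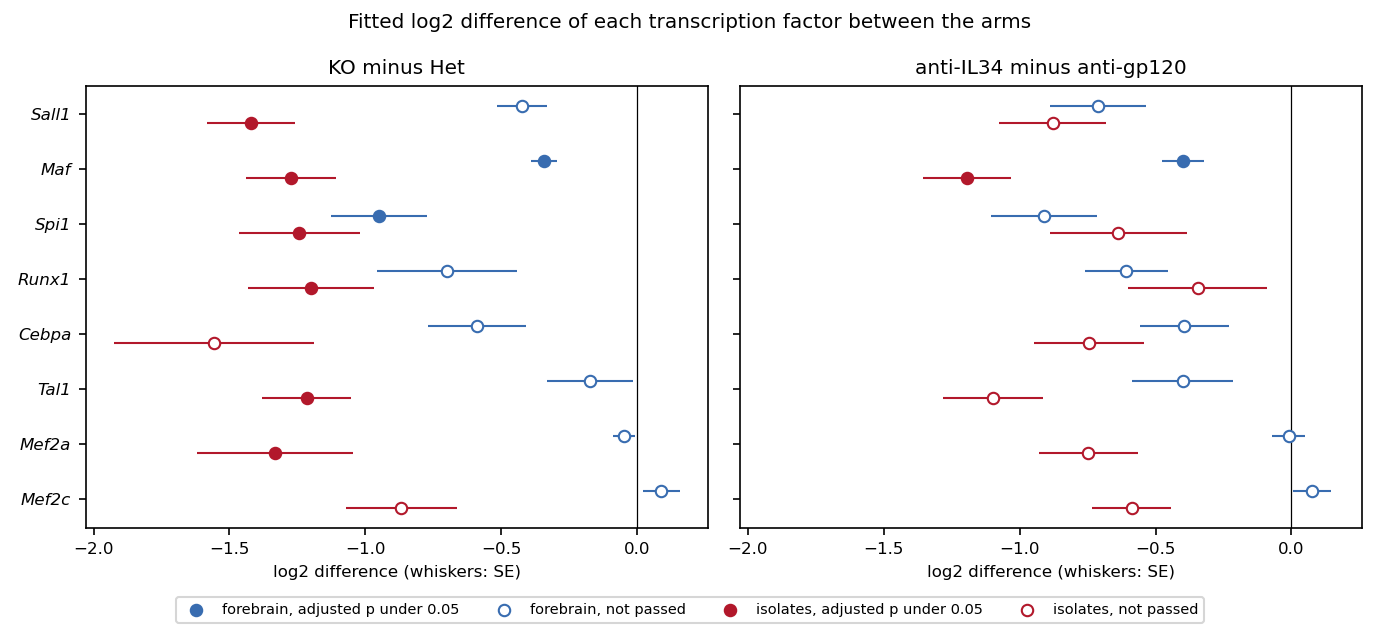
Fitted log2 difference of each factor between KO and Het (left) and between anti-IL34 and anti-gp120 (right), in forebrain and in CD11b isolates. Points are estimates, whiskers are SE, and filled points passed an adjusted p of 0.05. In the isolates 6 factors passed under deletion and Maf under the antibody, while Mef2a and Mef2c lie near 0 in forebrain.

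Over the 4 arms, which share no control between the experiments, the isolates ranked anti-gp120 first for every factor but Maf, where Het was first, and anti-gp120 and Het isolates overlapped for all 8. For Sall1 the means were 476 ± 65.4 CPM (anti-gp120), 449 ± 46.2 (Het), 252 ± 54.8 (anti-IL34) and 166 ± 16.97 (KO), with overlap between the first 2 and between the last 2. For Maf they were 431 ± 73.7 (Het), 407 ± 39.2 (anti-gp120), 172 ± 24.6 (KO) and 169 ± 39.01 (anti-IL34), with the same overlaps. Tal1 had the overlaps of Sall1, and Mef2c only the first of them. For Spi1, Runx1, Cebpa and Mef2a the first place overlapped with the second and the second with the third, and KO lay apart at the bottom. In forebrain, Maf alone had 4 arms without overlap between neighbours, at 36.4 ± 2.78 CPM in anti-gp120, 30.98 ± 1.49 in Het, 27.6 ± 1.31 in anti-IL34 and 24.7 ± 0.845 in KO.

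Of 55 listed relatives and partners of the factors (paralogues such as Sall3, and cofactors such as Lmo2), 11 of 49 tested fell in KO isolates and none rose, beside 5.22% of all genes called lower, with a median log2 difference of -0.62 against 0.019 for all genes. Like all calls in KO isolates, these were lost without any 1 of the 5 animals named above. Among them were Lyl1, a close relative of Tal1 (-1.45 ± 0.16), Sall3 (-1.03 ± 0.14), and Fli1, an ETS factor like PU.1 (-1.19 ± 0.19). In KO forebrains none of 46 passed edgeR's test (5 had an unadjusted p under 0.05), and the smallest p were those of Elf4 (-0.66 ± 0.17) and Irf5 (-0.86 ± 0.24). For scale, Runx1 (edgeR unadjusted p = 0.0184) stood at place 664 of the 19343 genes tested there. In anti-IL34 isolates 1 of 48 passed, Sall3 (-0.96 ± 0.14), beside 0.603% of all genes called lower. In anti-IL34 forebrains 2 of 44 rose, both of the interferon regulatory family, Irf7 (2.17 ± 0.31) and Irf9 (0.86 ± 0.16), beside 0.192% of all genes called higher, and none fell.

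Of 45 other regulators of microglia and macrophages, 1 of 43 fell in KO forebrains, Ikzf1, which encodes the zinc finger factor Ikaros (-0.97 ± 0.14), beside 0.615% of all genes called lower. In KO isolates 7 of 45 fell, beside 5.22% of all genes, led by Ikzf1 (-1.58 ± 0.19), Hhex (-1.30 ± 0.22), Stat6 (-1.16 ± 0.22) and Rxra (-0.68 ± 0.14). In anti-IL34 forebrains Ikzf1 fell (-0.94 ± 0.14), 1 of 43 tested, beside 0.525% of all genes called lower. In anti-IL34 isolates none of 45 passed edgeR's test (23 had an unadjusted p under 0.05), and the smallest p were those of Hhex (-0.87 ± 0.16) and Bhlhe41 (-1.13 ± 0.23). Such p were common among all genes there, with Spi1 (edgeR unadjusted p = 0.0358) at place 3536 of the 17570 tested. Ikzf1 thus passed in 3 of the 4 arm comparisons.

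Of 22 genes listed as targets of these factors, 11 of 20 fell in KO forebrains, 12 of 21 in KO isolates, 11 of 20 in anti-IL34 forebrains and 7 of 21 in anti-IL34 isolates, and none rose. The shares of all genes called lower in these comparisons were 0.615%, 5.22%, 0.525% and 0.603%. In anti-IL34 isolates no gene of the table passed edgeR's test without anti-IL34 animal 10 or anti-gp120 animal 7, when 2701 and 2882 genes had an unadjusted p under 0.05, so the calls of all lists there were lost. P2ry12, the purinergic receptor of resting microglia, differed by -1.85 ± 0.083 and -1.92 ± 0.32 in KO forebrain and isolate and by -2.18 ± 0.072 and -1.93 ± 0.20 in anti-IL34 forebrain and isolate. Tmem119 differed by -1.85 ± 0.16, -1.92 ± 0.18, -1.84 ± 0.16 and -1.40 ± 0.18 in the same order. Slc2a5, the fructose transporter gene, was lowest under the antibody in the isolates (-2.78 ± 0.22), against -2.07 ± 0.18 in KO isolates. P2ry12, Tmem119 and several other targets, though not Slc2a5, also stand in the microglia marker list, so their counts are not separate from it. In forebrain, P2ry12 and Tmem119 had lower log2 values than any of the 8 factors in both experiments.

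Across the 15 isolates all 28 pairs of factors were positively correlated after each arm's mean was removed (median r = 0.65, from 0.28 for Maf with Cebpa to 0.93 for Spi1 with Runx1). These values share libraries and the isolates' makeup, and the same for gene pairs in general was not computed. In forebrain 16 of 28 pairs were positive and the median was 0.041. Among 12378 genes with a mean of at least 5 CPM, the genes most like each factor over the 15 isolates were Tifab for Sall1 (r = 0.99), Pdgfb for Spi1 (0.99), Gmpr2 for Maf (0.98), Dock11 for Mef2c (0.99), Smap2 for Mef2a (0.995), Lrrc25 for Runx1 (0.98), Tlr9 for Cebpa (0.99) and Setdb1 for Tal1 (0.99). With arm means removed these were 0.92 for Sall1, 0.99 for Spi1, 0.82 for Maf, 0.97 for Mef2c, 0.98 for Mef2a, 0.95 for Runx1, 0.97 for Cebpa and 0.93 for Tal1.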

How the data were processed

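Per the labels' protocols, mice were perfused with saline, RNA was extracted with TRIzol, and the SMART-Seq v4 kit was used for the libraries. STAR 2.7.5c, featureCounts 1.6.3, R 4.4.0 and the GRCm38 build are named in the submitters' processing notes. The authors deposited unnormalised counts per gene, TPM, and a Length column (another unit), which equals the gene span in GENCODE M21 for 51183 of 51498 matched genes. Columns of 6 samples without labels were not used. The counting settings are not given in the sources used here, and most protein-coding genes inside another gene on the same strand, Irf8 among them, are at 0 in every library.

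From the counts, edgeR 4.0.16 in R 4.3.3 gave TMM factors, a filter on low counts (filterByExpr), quasi-likelihood F tests with a term for sex, and p-values adjusted by Benjamini-Hochberg over all genes tested, with a threshold of 0.05. The SE is the log2 difference divided by the square root of F. Each arm comparison used the 7 or 8 libraries of its tissue and experiment. Alternatives were DESeq2 1.42.0, RLE factors, no filter, no sex terms, a spread over 15 libraries, each animal left out, and the animal as a replicate block. The fits were run on simulated counts with the same spread for all genes and independent libraries. That check does not cover the pairing of libraries or the isolates' makeup. The sample sheet ties both tissues to 1 animal in 30 of 30 libraries, and deviations of same-animal libraries had a median correlation of 0.18 (0.076 to 0.371, 12 of 15 above 0.1). Over 42 replicate pairs, chi-square per degree of freedom was at least 5.48, so no library was a copy. P-values of comparisons within a tissue measure the spread between animals. The isolate against forebrain and tissue difference tests took both libraries of an animal as independent, except with the replicate block.

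The genes and lists were chosen with earlier results of these data known. All 9 factors are named in each comparison, and of other lists at most the 4 genes with the smallest p among those past the threshold, or the 2 smallest where none passed. Some genes that met this rule are not reported here.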

Additional observations from a re-analysis of the deposited data

Results flagged for a closer look

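With chance marking about 1 in 20 groups, 48 groups of 4 libraries were checked for a library far from the others, and 3 stood out. Sall1 in the forebrain of anti-gp120 animal 1 was at 46.6 CPM, while the other 3 animals were at 30.6 to 30.7 CPM. Mef2c in the isolate of Het animal 21 was at 644.6 CPM, above 381 to 425 CPM in the other Het isolates. Cebpa in the forebrain of Het animal 21 was the lowest of its arm at 2.05 CPM, against 3.03 to 3.22 CPM.

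The effect of deletion differed between isolate and forebrain, by edgeR's test of the difference of the log2 effects, for Sall1 (-0.95), Maf (-0.90), Mef2a (-1.26) and Tal1 (-0.999). With the animal as a replicate block none of the 4 passed.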

How the results depend on the processing

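Counts are of the 8 factors that passed edgeR's test, or DESeq2's where it is named. The shares of all genes called in these fits are not reported here. A higher count is therefore no measure of the factors against other genes. Without the filter on low counts, 5 rather than 2 passed for KO against Het in forebrain. With DESeq2, 3 rather than 2 passed there and 8 rather than 6 in the isolates. For the antibody in forebrain, 3 rather than 1 passed with DESeq2 and without the filter, and 2 with the spread of all 15 libraries. For the antibody in the isolates, 6 rather than 1 passed with DESeq2 and without sex terms, 5 without the filter and 4 with the spread of all 15 libraries. For the tissue difference of the effect, 0 rather than 4 passed under deletion with the replicate block and 5 with DESeq2, and under the antibody 3 rather than 0 passed with DESeq2, 2 without the filter and 1 without sex terms. The replicate block changed no other call. RLE factors ended the call of Mef2a in KO isolates (adjusted p = 0.059). With 1 animal left out, the count ranged from 0 to 2 for KO against Het in forebrain and from 0 to 8 in the isolates, from 0 to 1 for the antibody in forebrain and from 0 to 8 in the isolates. For the tissue difference it ranged from 0 to 6 under deletion and from 0 to 4 under the antibody. The isolate against forebrain comparisons kept 8 of 8, and the deletion against antibody comparisons 0 of 8, under all alternatives run. The causes were not tested.

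Of 1104 values of single factors under the alternatives, 29 turned in direction, all with 1 animal left out and all of factors that had not passed. With 1 animal left out, Mef2c in forebrain ranged from -0.0017 to 0.16 for KO against Het and from -0.016 to 0.11 for the antibody, and Mef2a from -0.039 to 0.013 for the antibody. The tissue difference of Spi1 under the antibody ranged from -0.14 to 0.42. The deletion effect minus the antibody effect ranged in forebrain from -0.17 to 0.063 for Spi1, -0.0073 to 0.12 for Maf, -0.072 to 0.095 for Mef2c, -0.39 to 0.047 for Runx1 and -0.36 to 0.050 for Cebpa. In the isolates it ranged from -0.17 to 0.23 for Maf and from -0.23 to 0.16 for Tal1. In forebrain, Spi1, Runx1, Cebpa and Tal1 rest on few counts (19 to 171 for Spi1 in the genotype experiment), which limits their precision.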
